A study of Mus musculus with 2 samples.

Results

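The genes described here are 10 that make or control the enzymes that cut the extracellular matrix: 6 matrix metalloproteinase genes (Mmp8, Mmp13, Mmp9, Mmp12, Mmp14 and Mmp19), the 2 inhibitor genes Timp1 and Timp2, the membrane protease gene Adam8, and Plaur, which encodes the receptor of urokinase. They were taken as a named list, with all 10 found among the 27188 gene symbols of the 2 feature lists together, and their raw UMI counts (unique molecular identifiers, 1 per captured RNA molecule) were read in every cell class of both libraries. The data are single-cell RNA counts of cells sorted for CD45, the pan-leukocyte surface protein, from tumours grown under the skin of C57BL/6 mice from MC38, a mouse colon carcinoma line. The PBM library came from mice given photobiomodulation, a treatment with light, each day from day 7, and the Control library from mice with the same tumours. Tumours of both groups were taken at day 14 and the genotype label of both is WT. The labels do not state how many mice were used, their age or sex, or what the Control mice received in place of light. Cells of a condition were pooled before the library was made, so each group is 1 library and no test between groups was possible.

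Matrix metalloproteinases are zinc enzymes made as inactive precursors. Together they can degrade collagens, elastin and other matrix proteins, and TIMP proteins bind their active sites and block them. In tumours such enzymes come from tumour cells, stromal cells and infiltrating myeloid cells, and they also cut cytokines and growth factors free from the matrix or the cell surface. The urokinase receptor holds urokinase at the cell surface, where it turns plasminogen into plasmin, a protease that can activate several metalloproteinase precursors.

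The libraries differed in ways that bear on every value. The kept cells were 13062 in the PBM library and 11099 in the Control library, but the cells that carry most of the 10 genes were unequally shared. Macrophages numbered 79 in the PBM library and 4208 in the Control library, monocytes 84 and 890, neutrophils 12 and 71, NK cells 204 and 1337, and cells of a cluster led by Sparc 7 and 1219. Most PBM cells were T cells (6154) and B cells (5618), against 2185 and 207 in the Control library. Cells also differed in depth: the median total was 2338 UMIs in PBM macrophages and 8524 in Control macrophages, and 2186.5 and 3482 in monocytes. Lymphocyte RNA stood in PBM myeloid cells and in other PBM classes. All 8 B cell markers and all 11 T cell markers searched had UMIs in PBM macrophages. Their summed levels were 901 and 986 UMIs per 1000000 UMIs of the class (CPM) there, and 12.9 and 167 in Control macrophages. The B cell markers also summed to 617 CPM in PBM T cells and 631 in PBM NK cells. The T cell markers summed to 664 CPM in PBM B cells. Cd79a had UMIs in 54.4% of PBM macrophages, 60.2% of PBM T cells and 52.9% of PBM NK cells. Of the 79 PBM macrophages, 45 lay in a sub-cluster led by the B cell genes Cd79a, Iglc3 and Igkc, and only 8 had no UMI of 6 B and T cell genes, against 2359 of 4208 in the Control library. All 11 macrophage markers had UMIs in both groups, at a summed level of 4584 in PBM and 13451 in Control macrophages. Scrublet called 899 PBM and 128 Control barcodes doublets, which were left out. The 2 libraries share 1991 barcode names, but these are serial names and not sequences, so shared cells could not be counted. The part that mixed cells play in the macrophage values was not tested, and values without the lymphocyte-led sub-clusters are given beside them.

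The cluster led by Sparc also had Cald1, Ankrd1, Tm4sf1 and Col1a2 among its leading genes. Ptprc, the gene of CD45, stood there at 53.5 CPM in PBM cells and 28.6 in Control cells, below the levels of 113 to 1004 in the other named classes. The cell type label of both libraries reads tumour cells, whereas the sort and the other clusters are of leukocytes. Cells of this cluster are called Sparc-led after their leading gene and are given no type.

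Levels of a gene are likewise its summed UMIs per 1000000 UMIs of all genes in a class (CPM), with exact Poisson 95% intervals in brackets. Intervals cover counting error only and say nothing of variation between mice. No class was defined with these 10 genes, which were kept out of the genes that formed the clusters. Where a class had no UMI of a gene, the level is given as below the limit that 3 counts would give in that class.

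Promoter windows are shown first, because 3 of the genes share a short motif near the start of transcription. RefSeq windows of 250 bases before to 50 bases after an annotated start were matched for 8 of the 10 genes, in 9 windows, on GRCm38.p6. They were searched on both strands for TGANTCA, the core site of the AP-1 transcription factors (Fos and Jun family dimers), which drive many metalloproteinase promoters. The motif was in 1 window each of Mmp13, Mmp12 and Plaur, and in 7.81% of the 32851 windows of all genes, 2565 in number. Capitals mark the motif, which begins 35 bases before the start for Mmp13, 44 before for Mmp12 and 69 before for Plaur. All 3 genes lie on the plus strand.
Mmp13, chr9:7272264-7272563: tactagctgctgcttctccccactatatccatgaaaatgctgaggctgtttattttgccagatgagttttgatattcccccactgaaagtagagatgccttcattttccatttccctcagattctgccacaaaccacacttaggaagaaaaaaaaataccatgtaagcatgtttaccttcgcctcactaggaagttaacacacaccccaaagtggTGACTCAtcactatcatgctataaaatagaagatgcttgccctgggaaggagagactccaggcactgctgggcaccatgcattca
Mmp12, chr9:7347124-7347423: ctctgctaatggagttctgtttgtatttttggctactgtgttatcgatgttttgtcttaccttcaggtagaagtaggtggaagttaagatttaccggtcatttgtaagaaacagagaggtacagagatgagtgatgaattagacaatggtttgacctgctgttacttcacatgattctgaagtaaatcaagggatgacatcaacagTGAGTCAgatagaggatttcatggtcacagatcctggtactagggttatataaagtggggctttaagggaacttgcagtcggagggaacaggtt
Plaur, chr7:24462233-24462532: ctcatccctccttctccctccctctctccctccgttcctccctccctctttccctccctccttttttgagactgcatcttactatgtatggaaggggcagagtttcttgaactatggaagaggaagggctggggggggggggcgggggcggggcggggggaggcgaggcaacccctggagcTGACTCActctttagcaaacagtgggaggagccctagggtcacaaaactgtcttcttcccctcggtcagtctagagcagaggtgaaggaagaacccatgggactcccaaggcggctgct
The Mmp12 and Plaur windows shown surround starts inside the annotated gene bodies, at chromosome 9, 7344397 to 7360461, and chromosome 7, 24460937 to 24475970. The other Mmp12 window, at the outermost start, lacks these letters, as do those of Mmp8, Mmp14, Timp1, Timp2 and Adam8. Mmp13, Mmp12 and Mmp8 are neighbours within the metalloproteinase cluster of chromosome 9, where Mmp13 spans 7272514 to 7283333 and Mmp8 spans 7558429 to 7568486. A match of letters is not evidence of binding.

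The clearest division among the genes was by cell class. In the Control library, which held enough cells of each class, 5 genes were highest in macrophages (Mmp12, Mmp13, Mmp14, Mmp19 and Adam8), 3 in neutrophils (Mmp8, Mmp9 and Plaur) and 2 in Sparc-led cells (Timp1 and Timp2). When cells were classed by a marker gate instead of clusters, Adam8 was highest in neutrophils (529 CPM). None was highest in monocytes or NK cells. The inhibitors thus had their highest level outside the named leukocyte classes, and the metalloproteinases had theirs in macrophages or neutrophils.

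**Figure D1:**
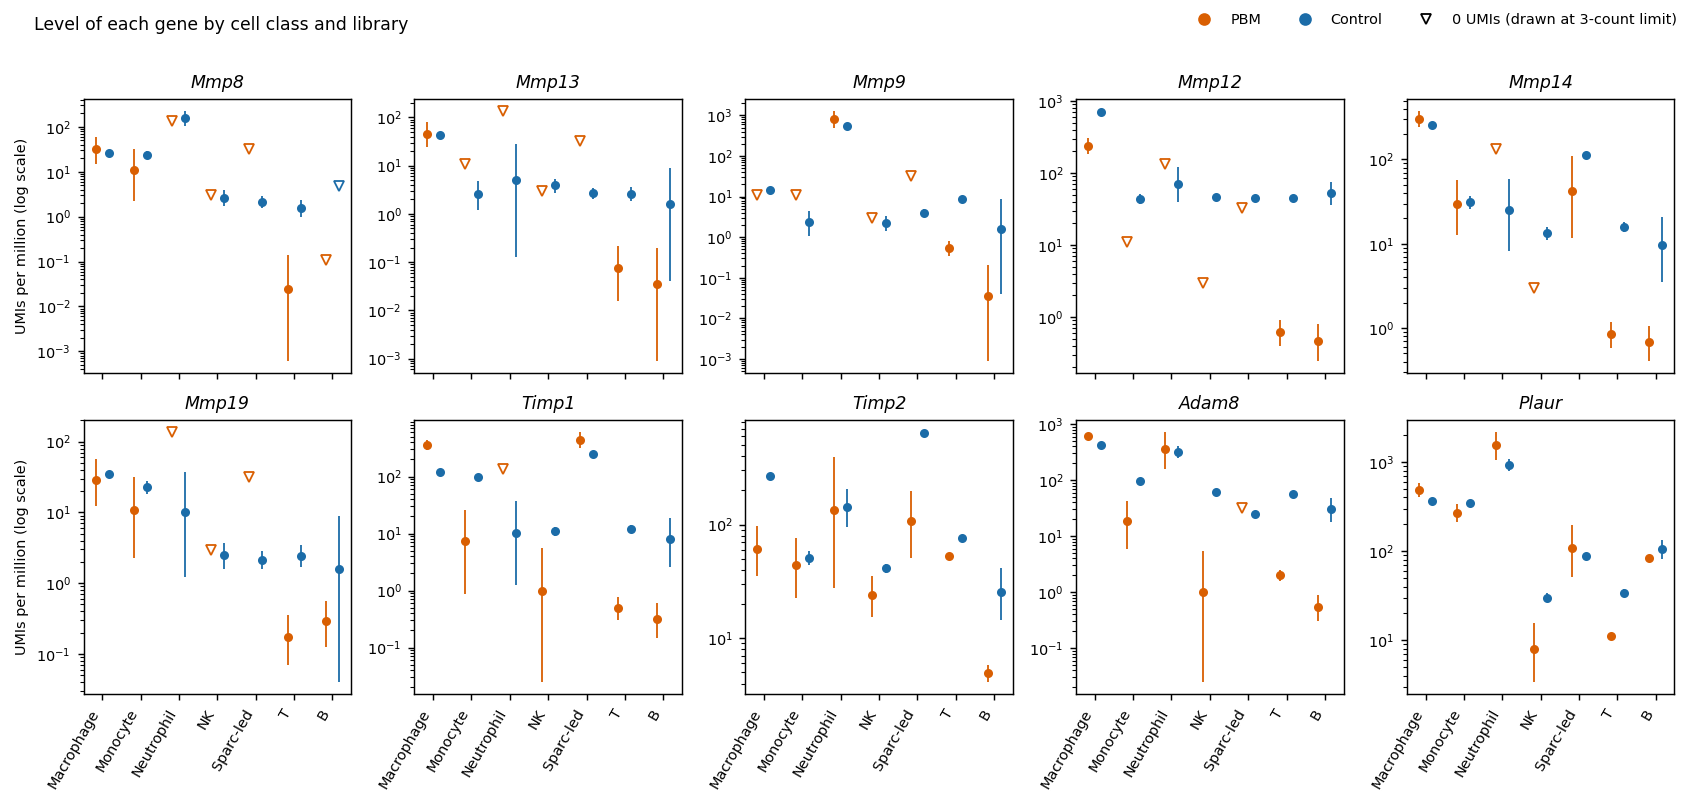
Level of each of the 10 genes in CPM (log scale) by cell class, PBM (orange, left) and Control (blue, right), with exact Poisson 95% intervals. Open triangles stand for classes with 0 UMIs and are drawn at the limit of 3 counts. Mmp12 stands out as a gene of Control macrophages (711), and Mmp9 as a gene of neutrophils in both libraries (808 in PBM, 539 in Control).

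Mmp8 and Mmp13 encode collagenases, which cut fibrillar collagen. Mmp8, the neutrophil collagenase, had no UMI in the 12 PBM neutrophils (limit 135 CPM) and stood at 158 CPM (107 to 224) in the 71 Control neutrophils. In macrophages Mmp8 was 32.0 CPM in the PBM library (14.6 to 60.8, 9 UMIs) and 26.3 CPM in the Control library (24.8 to 27.7). Control monocytes were close to Control macrophages, at 23.8 CPM with intervals that overlap. So the 4208 Control macrophages held 84.8% of the library's Mmp8 UMIs and the 71 neutrophils 2.10%, although the level was higher in neutrophils.

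Mmp13 was a gene of macrophages. Its level there was 46.3 CPM in the PBM library (24.6 to 79.1, 13 UMIs in 8 cells) and 42.7 CPM in the Control library (40.8 to 44.6, 2037 UMIs in 549 cells). Every other Control class had an Mmp13 level of 5.09 CPM or less, so the step down from macrophages was 8.39-fold. A single Control macrophage held 106 of the 2037 UMIs. Over the 15 Control clusters of at least 50 cells, the genes whose log2 levels followed Mmp13 most closely were AU022793 (Pearson r 0.93), Pf4 (0.91) and Retnla (0.91). Those for Mmp8 were Hgf (0.95), Clec4d (0.95) and Cd14 (0.94), among 11745 genes. These correlations are descriptions: the points share 1 library and its free RNA.

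Mmp9, a gelatinase stored in neutrophil granules, was highest in neutrophils of both libraries, at 808 CPM in PBM cells (479 to 1278, 18 UMIs) and 539 CPM in Control cells (442 to 652, 106 UMIs). No UMI of Mmp9 was seen in PBM macrophages (limit 10.7 CPM), whereas Control macrophages had 14.6 CPM (13.5 to 15.7). The Mmp9 of Control macrophages was uneven: 155 of the 4208 cells held all 696 UMIs, and 1 cell held 87. The Foxp3-led T cell cluster, of which Foxp3 marks regulatory T cells, had 15.8 CPM in 59 PBM cells (6.83 to 31.2) and 25.8 CPM in 572 Control cells (20.4 to 32.2). A T cell cluster led by Izumo1r also had Foxp3 among its leading genes. Its Mmp9 was 2.27 CPM in 724 PBM cells (1.13 to 4.06) and 16.7 CPM in 396 Control cells (11.1 to 24.2). Over all T cells the level of Mmp9 was 0.54 CPM in the PBM library and 8.68 in the Control library. Mmp9 was followed over clusters by Egln3 (r 0.90), Mafg (0.88) and Plk3 (0.86).

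Mmp12, the macrophage elastase, was far higher in Control macrophages than in any other Control class. It stood at 238 CPM in PBM macrophages (185 to 303, 67 UMIs in 11 cells) and at 711 CPM in Control macrophages (703 to 718, 33922 UMIs in 2514 cells). In Control cells the next level was a 9.98-fold step lower, at 71.2 CPM in neutrophils. Control monocytes, NK cells, Sparc-led cells, T cells and B cells lay between 43.8 and 52.7 CPM, near one level in all 5. In the PBM library the same RNA was at 0.62 CPM in T cells and 0.47 in B cells. Single Control macrophages held up to 405 Mmp12 UMIs, and macrophages held 92.9% of all Control Mmp12 UMIs. The closest genes over clusters were Pf4 (r 0.96), F7 (0.95) and C1qb (0.95).

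Mmp14 encodes a membrane-anchored metalloproteinase that activates the precursor of MMP2, with TIMP2 as a bridge between the enzyme pair. Macrophages had 303 CPM in the PBM library (242 to 374) and 255 CPM in the Control library (251 to 260). Sparc-led cells came next, with 42.8 CPM in the 7 PBM cells (4 UMIs) and 114 CPM in Control cells (109 to 118). Monocytes had 29.3 CPM in the PBM library and 31.0 in the Control library. Mmp14 was thus shared by macrophages and Sparc-led cells, and its closest genes over clusters were Sh3pxd2b (r 0.97), Gatm (0.97) and Igsf8 (0.94). Sh3pxd2b encodes an adaptor of podosomes, the cell protrusions at which membrane proteases gather.

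Mmp19, a secreted metalloproteinase with basement membrane substrates, was a low gene of macrophages and monocytes. Macrophages had 28.5 CPM in the PBM library (12.3 to 56.1, 8 UMIs) and 34.4 CPM in the Control library (32.8 to 36.1). Monocytes had 11.0 CPM in the PBM library (3 UMIs) and 22.8 CPM in the Control library (18.3 to 28.0). Lyz1 (r 0.96), Clec4a2 (0.96) and F10 (0.95) followed Mmp19 most closely over clusters.

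The inhibitors had another distribution. Timp1, a secreted inhibitor of many metalloproteinases, stood at 439 CPM in the 7 PBM Sparc-led cells (315 to 595, 41 UMIs, 31 of them in 1 cell) and at 250 CPM in the 1219 Control Sparc-led cells (243 to 257). In macrophages it was 356 CPM in the PBM library (290 to 433, 100 UMIs in 19 cells) and 119 CPM in the Control library (116 to 123, 5703 UMIs in 1404 cells). PBM monocytes had 7.32 CPM from 2 UMIs, and Control monocytes 100 CPM. Macrophages and Sparc-led cells thus shared the Control Timp1 almost evenly, with 48.5% and 44.3% of its UMIs. Plscr3 (r 0.93), Map3k6 (0.90) and Sap30 (0.89) followed Timp1 over clusters.

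Timp2, which both inhibits metalloproteinases and takes part in MMP2 activation, had UMIs in all 5 of the myeloid, NK and Sparc-led classes of both libraries. Sparc-led cells had 107 CPM in the PBM library (51.3 to 197, 10 UMIs) and 636 CPM in the Control library (625 to 647). Macrophages had 60.5 CPM in the PBM library (35.2 to 96.9, 17 UMIs) and 269 CPM in the Control library (265 to 274). Timp2 was also seen in T cells at a level above that of B cells. PBM T cells had 52.5 CPM (50.3 to 54.8) and PBM B cells 4.93 CPM (4.14 to 5.83) at median depths of 5779.5 and 4451.5 UMIs per cell. In the Foxp3-led T cell cluster it was 168.0 CPM in 59 PBM cells (134 to 208) and 168.4 CPM in 572 Control cells (154 to 184). In the Izumo1r-led cluster, which also has Foxp3 among its leading genes, Timp2 was lower. It was 70.5 CPM in 724 PBM cells (63.2 to 78.4) and 83.6 CPM in 396 Control cells (70.4 to 98.7). The 6154 PBM T cells held 83.6% of the Timp2 UMIs of their library, and the 2185 Control T cells 3.66%. Plec (r 0.89) and Rnase4 (0.88) were among the genes nearest to Timp2 over clusters.

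Adam8 encodes a membrane sheddase of myeloid cells, which cuts adhesion molecules from the surface. Macrophages had 609 CPM in the PBM library (521 to 707) and 420 CPM in the Control library (415 to 426). Neutrophils had 359 CPM in the PBM library (155 to 708, 8 UMIs) and 321 CPM in the Control library (246 to 410). Monocytes lay below both, with 18.3 CPM in the PBM library (5 UMIs in 2 cells) and 95.5 CPM in the Control library (86.1 to 106). Its nearest genes over clusters were the integrin gene Itgam (r 0.92), Dhrs3 (0.90) and Hk3 (0.90).

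Plaur was highest in neutrophils, at 1527 CPM in PBM cells (1058 to 2134, 34 UMIs) and 926 CPM in Control cells (796 to 1071). Macrophages had 484 CPM in the PBM library (406 to 573) and 366 CPM in the Control library (361 to 372). Monocytes had 271 CPM in the PBM library (213 to 340) and 348 CPM in the Control library (329 to 367), and the Control macrophage and monocyte intervals overlap. B cells also carried Plaur, with 84.2 CPM in the PBM library (80.8 to 87.7) and 105 CPM in the Control library (81.5 to 134), against 11.1 and 34.2 CPM in T cells. PBM B cells held 74.2% of the library's Plaur UMIs, and among 4 PBM B cell clusters the level ran between 68.0 CPM in the Iglc1-led cluster and 185 CPM in the Ebf1-bearing cluster led by Gm31243. Tpd52 (r 0.95), Cebpb (0.95) and Cd14 (0.94) followed Plaur over clusters.

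**Figure D2:**
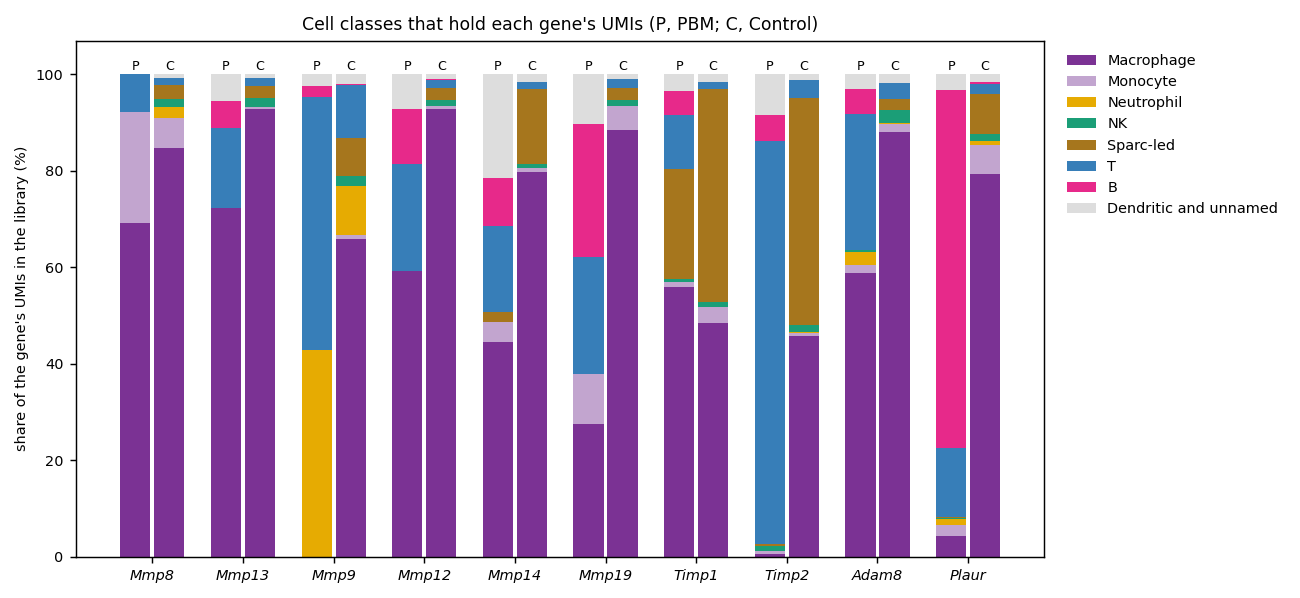
Share of each gene's UMIs in a library that each cell class holds (percent), with the PBM bar (P) left of the Control bar (C). Macrophages hold most UMIs of 8 of the genes in the Control library, while in the PBM library T cells hold 83.6% of Timp2 and B cells 74.2% of Plaur.

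In droplet data free RNA from other cells is captured with every cell and gives a low level of a gene in classes that do not express it. Control NK cells had 46.7 CPM of Mmp12, 62.1 of Adam8, 30.1 of Plaur, 13.4 of Mmp14 and 11.0 of Timp1. Control T cells had 44.9, 56.5, 34.2, 15.9 and 12.2 CPM of the same genes. Mmp12 had 52.7 CPM in Control B cells as well, so its level was alike in all 3 lymphocyte classes. Adam8 was lower in Control B cells, at 30.3 CPM, so its level was not common to all lymphocytes. The shares of Control cells with an Mmp12 UMI were 24.3% in NK cells and 22.1% in T cells, at 5.68% and 4.44% after each cell was thinned to 1000 UMIs, against 59.7% and 26.1% in macrophages. The median depths were 4915 UMIs in NK cells, 4305 in T cells and 8524 in macrophages.

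Among Control macrophages and monocytes, re-clustered without the 10 genes, the proteases peaked in different sub-clusters, compared here among those of at least 50 cells. Mmp12 and Mmp13 were both highest in a sub-cluster of 438 cells led by Gpnmb, a gene of lipid-laden macrophages, at 1503 and 112 CPM. Mmp8, Mmp9 and Adam8 were highest in 335 cells led by Cxcl3, Thbs1 and Sox4, at 57.3, 49.4 and 630 CPM. That sub-cluster was also next to the Gpnmb-led one in Mmp12, with 1392 CPM. Mmp14 was highest in 714 cells led by Ly6i, Cfb and Ccl5 (366 CPM). Plaur, Timp1 and Mmp19 were highest in 224 cells led by Dmkn, Plac8 and Cxcl10, at 784, 321 and 48.6 CPM.

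Timp2 had a place of its own. Its highest level was in 601 cells led by Cbr2, Ccl8 and Fcrls, at 750 CPM, against 63.3 CPM in the Ly6i-led cells and 59.4 CPM in 357 cells led by Il1r2. At the coarser level the Ccl8- and Folr2-led macrophage cluster had 585 CPM of Timp2 and the Fpr2- and Nos2-led cluster 105 CPM. Timp1 ran the other way, with 66.7 CPM in the Ccl8-led cluster and 147 CPM in the Fpr2-led cluster. Plaur did likewise, with 242 and 431 CPM, whereas Mmp13 was higher in the Ccl8-led cluster, with 80.9 and 22.7 CPM. The 414 Ace- and Treml4-led cells had 24.4 CPM of Mmp14 and 3.39 CPM of Mmp19, but 263 CPM of Plaur. Median depth differed between sub-clusters, with 8021 UMIs in the Gpnmb-led cells, 12675 in the Thbs1-bearing cells and 2981.5 in the Ace-led cells.

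**Figure D3:**
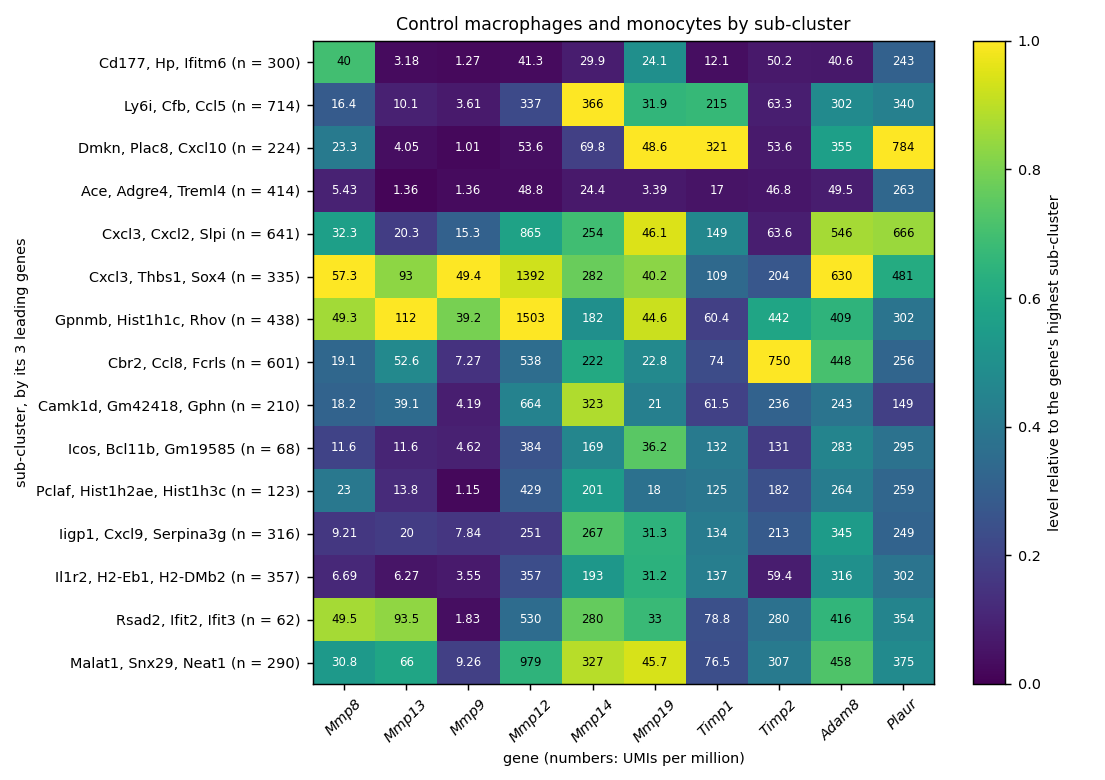
Sub-clusters of Control macrophages and monocytes (down, with their 3 leading genes and cell numbers) by gene (across). Colour is the level relative to the gene's highest sub-cluster and the numbers are CPM. The highest cell for Mmp12 and Mmp13 is the Gpnmb-led sub-cluster, for Timp2 the Cbr2-led one (750) and for Timp1 the Dmkn-led one (321).

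Genes were also compared cell by cell in the 4208 Control macrophages, after each cell was thinned to 1000 UMIs so that deeper cells did not drive the overlap. Mmp13 and Mmp12 were seen together in 80 cells, 2.49 times the number that the product of their shares gives. For Mmp8 and Mmp12 it was 62 cells and 2.22 times. Mmp13 and Timp2 were together in 38 cells, 1.68 times the product. For Timp1 the pairs with proteases ran between 0.54 times the product with Mmp8 (5 cells) and 1.10 times with Adam8, with 0.88 times for Mmp12 (83 cells) and 0.97 times for Mmp14 (76 cells). The 2 inhibitors themselves were together in 45 cells, 0.67 times the product. These are descriptions of cells of 1 library, and the sub-clusters above are pooled in them.

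A PBM macrophage held UMIs of a median of 3 of the 10 genes and at most 6, and a Control macrophage of 4 and at most 10. At least 3 of the genes were seen in 50.6% of PBM and 81.2% of Control macrophages. After thinning, these shares were 7.59% and 17.1%, with a median of 1 gene in both.

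**Figure D4:**
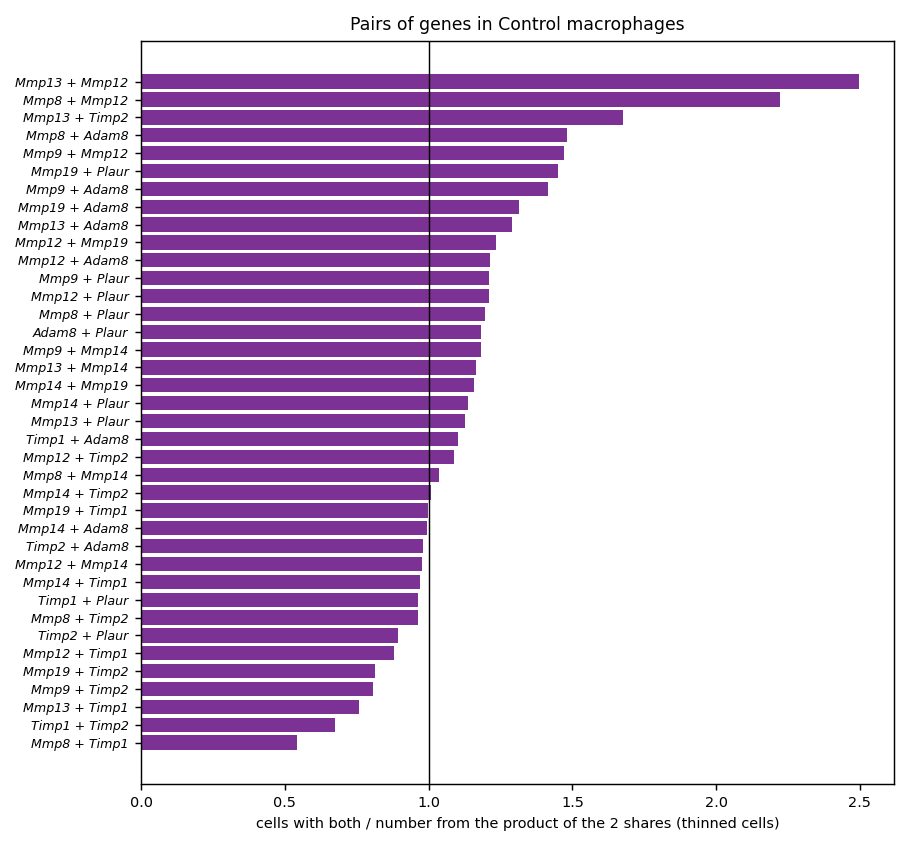
Pairs of genes seen in the same Control macrophage after thinning to 1000 UMIs per cell, as the number of cells with both divided by the number from the product of the 2 shares. The 38 pairs with a product of at least 5 cells are shown, and the line marks 1. Mmp13 with Mmp12 (2.49) is at the top, and Timp1 with Timp2 (0.67) and Mmp8 with Timp1 (0.54) are at the bottom.

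PBM was set against Control within each class of at least 50 cells in both libraries, as the log2 ratio of the levels with an exact 95% counting interval. A gene was counted as higher or lower at 2-fold or more. In macrophages Mmp12 and Timp2 were lower in PBM cells, at 238 and 60.5 CPM against 711 and 269 CPM in Control cells. The log2 ratio of Mmp12 was -1.58 (-1.94 to -1.23) and that of Timp2 -2.15 (-2.93 to -1.47). Timp1 was higher, with a log2 ratio of 1.57 (1.27 to 1.86). So 2 of the 10 genes were lower and 1 was higher, where 7.99% and 10.9% of the 13533 genes tested in macrophages passed the same fold. Only 9935 of those 13533 could be given a direction, since some had 0 UMIs in 1 library and a low level in the other. All 10 genes could, and shares over such genes alone are larger. Of the rest of the 10 genes, 6 lay within 2-fold: Adam8 at 0.53 (0.31 to 0.75), Plaur at 0.40 (0.15 to 0.65), Mmp14 at 0.24 (-0.08 to 0.55), Mmp8 at 0.29 and Mmp13 at 0.12. Mmp19 was at -0.27. Mmp9 had no PBM UMI and was at least 1.37-fold lower at the limit of 3 counts. That bound does not place it within 2-fold or past it. The exact interval of Mmp9 reached nearer to no change, to a log2 ratio of -0.15. Folds given below as at least also use the limit of 3 counts, and the exact intervals allow smaller folds.

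These macrophage ratios rest on 79 PBM cells. The sub-clusters where Control levels peaked held few PBM cells. For Timp2 the Cbr2-led one had 0 PBM and 601 Control cells, and for Mmp12 the Gpnmb-led one had 5 and 438. The part of this composition in the ratios was not tested. After thinning to 1000 UMIs per cell the Mmp12 ratio was -0.91, no longer past 2-fold, and that of Mmp13 was 1.34, past it. Of the 100 PBM Timp1 UMIs, 83 lay in the 46 macrophages of the lymphocyte-led sub-clusters, and 27 lay in 1 cell. In the 33 PBM macrophages outside them Timp1 was 136 CPM (79.4 to 218), against 119 CPM (116 to 122) in the 4140 Control macrophages outside them. The interval for PBM cells holds the Control level, so no difference in Timp1 was detectable there. Mmp12 outside these sub-clusters was 72.2 CPM in PBM macrophages (33.0 to 137, 9 UMIs in 3 cells) and 719 CPM in Control macrophages. Timp2 was 48.1 CPM in PBM macrophages (17.7 to 105, 6 UMIs) and 273 CPM in Control macrophages. Adam8 stood at 521 CPM in PBM (402 to 664) and 424 CPM in Control macrophages. For Adam8, Plaur (417 and 368 CPM) and Mmp14 (337 and 257 CPM) the PBM intervals hold the Control level.

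The Fpr2-led cluster held 57 of 79 PBM and 2697 of 4208 Control macrophages. Within it Mmp12 was 167 CPM in PBM cells (119 to 228) and 675 CPM in Control cells. Timp2 was 38.5 CPM in PBM cells (17.6 to 73.1) and 105 CPM in Control cells (101 to 108). Timp1 was 398 CPM in PBM cells (321 to 487) and 147 CPM in Control cells. At the finest clustering, where macrophages were 113 PBM and 2786 Control cells, the ratio of Adam8 was -1.21, so its direction depended on which cells were called macrophages. Those macrophages lack a cluster of 31 PBM and 1603 Control cells that met 11 of 11 macrophage markers. It was left unnamed because its leading genes held more markers of another class.

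In monocytes 5 of the 8 genes that could be tested were lower in PBM cells and none was higher, where 11.7% and 7.02% of 8638 genes passed. Timp1 had a log2 ratio of -3.77 (-6.83 to -1.91), from 2 UMIs in PBM cells and 391 in Control cells. Adam8 was at -2.38 (-4.02 to -1.15), from 5 and 373 UMIs. The monocytes of the libraries lay in different sub-clusters: the Dmkn-led one, where Control Timp1 and Adam8 were 321 and 355 CPM, held 5 of 84 PBM and 163 of 890 Control monocytes, and the Cd177-led one 56 and 282. In the Cd177-led sub-cluster, which also has 4 PBM and 18 Control macrophages, Timp1 was 9.82 CPM in PBM cells (1.19 to 35.5) and 12.1 CPM in Control cells (7.27 to 18.8). Adam8 was 29.5 CPM in PBM cells (10.8 to 64.1) and 40.6 CPM in Control cells (31.3 to 51.9) there, so neither difference was detectable within it. Mmp12 had no UMI in PBM monocytes and was at least 3.99-fold lower at the limit of 3 counts. The Control level of Mmp12 there was 43.8 CPM, beside 44.9 CPM in Control T cells, and free RNA could supply 100% of it by the estimate from markers of other classes. Mmp8 at -1.12 (-3.42 to 0.47) and Mmp19 at -1.05 (-3.36 to 0.54) passed the fold on 3 PBM UMIs each, with intervals that include no change. Timp2, Mmp14 and Plaur lay within 2-fold, with Plaur at -0.36 (-0.72 to -0.02). With free RNA subtracted, Timp2 was at 2.83 and Mmp14 at 2.39, in the other direction. The estimate was 27.8% of a gene's level in the whole library in PBM monocytes (0% to 60.3% over single markers). In Control monocytes it was 16.6% (5.37% to 67.9%), and the ratios over these ranges were not tested.

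To be less dependent on the border between these classes, they were also joined. Monocytes were 84 of the 163 PBM cells and 890 of the 5098 Control cells of the joined class, and the part of that mixture in its ratios was not tested. PBM macrophages and monocytes (163 cells) were lower than Control ones (5098 cells) in 3 of the 10 genes and higher in none, where 9.24% and 10.9% of 13743 genes passed. Of those 13743, 11165 could be given a direction, as could all 10 genes. Mmp12 was 121 CPM in PBM cells and 660 CPM in Control cells, a log2 ratio of -2.45 (-2.82 to -2.10). Timp2 was 52.3 CPM in PBM cells and 253 CPM in Control cells, at -2.27 (-2.85 to -1.75). Mmp9 was at least 2.52-fold lower. Without the lymphocyte-led sub-clusters, with 112 PBM and 5025 Control cells, the ratios were -4.81 for Mmp12 and -2.69 for Timp2. There 6 of the 10 genes were lower (Mmp12, Mmp13, Mmp19, Timp1, Timp2 and Adam8), a count given without a share over all genes. Mmp9 at its limit no longer passed (-0.81). The Timp1 ratio was 0.64 (0.34 to 0.92) with these sub-clusters and -1.23 without them. Leaving them out also changed the mixture, to 79 monocytes of 112 PBM cells and 885 of 5025 Control cells. In the macrophages outside them Timp1, Adam8 and Mmp13 were not lower in PBM cells, with Mmp13 at 48.1 CPM in PBM and 43.5 CPM in Control macrophages and the other values as given above.

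**Figure D5:**
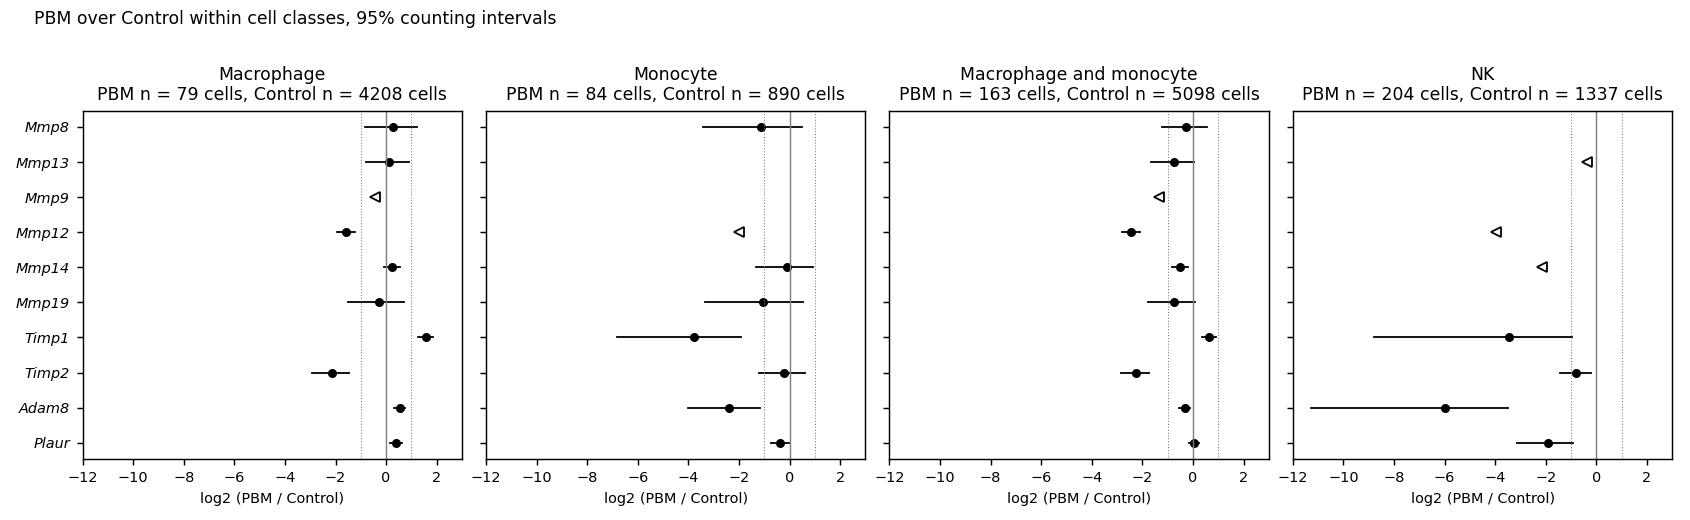
Log2 ratio of PBM over Control for each gene in 4 cell classes, with exact 95% counting intervals. Open triangles are upper limits where PBM cells had no UMI, dotted lines mark 2-fold, and genes that could not be placed have no point. Mmp12 lies left of the 2-fold line in all 4 classes, although free RNA could supply 100% of its Control level in monocytes and 86.3% in NK cells. Timp2 does so in macrophages (-2.15), and its monocyte value (-0.22) turned to 2.83 with free RNA subtracted.

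In NK cells 5 of the 10 genes were lower in PBM cells and none was higher, with Mmp8, Mmp9 and Mmp19 too low to place, where 9.62% and 7.39% of 11088 genes passed. Adam8 had 1 UMI in PBM NK cells and 605 in Control NK cells, a log2 ratio of -5.97 (-11.27 to -3.49). Timp1 was at -3.47 and Plaur at -1.92, and Mmp12 and Mmp14, with no PBM UMI, were at least 15.7-fold and 4.49-fold lower. Macrophage markers differed along with these genes in NK cells: the 11 markers summed to 22.8 CPM in PBM NK cells, where Mrc1, Ms4a7, Trem2 and Adgre1 were among those with no UMI, and to 716 CPM in Control NK cells. The 9 NK markers were all seen, at 14207 CPM in PBM and 8324 CPM in Control NK cells. By the estimate from markers of other classes, free RNA could supply 86.3% of the Mmp12, 80.9% of the Plaur and 40.5% of the Adam8 level of Control NK cells, and 100% of the Mmp14 and Timp1. The part of free RNA in these ratios beyond that estimate was not tested. TMM scaling moves every NK ratio by -0.18. Timp2, the gene that T cells also carry, was at -0.79 (-1.45 to -0.20), with 23.8 CPM in PBM and 41.2 CPM in Control NK cells. By the same estimate free RNA could supply 23.6% of the PBM level of Timp2 and 75.3% of the Control level. After its subtraction the direction turned, with 18.2 CPM in PBM and 10.2 CPM in Control NK cells. The estimate was 17.2% of a gene's level in the whole library in PBM NK cells (11.5% to 27.4% over single markers). In Control NK cells it was 11.3% (6.95% to 34.0%), and whether the direction turns over these ranges was not tested.

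At 1.5-fold in place of 2-fold, 2 of the genes were lower and 1 higher in PBM macrophages, where 15.9% and 19.0% of all genes passed. In monocytes 5 were lower and 0 higher (23.9% and 15.2% of all genes), in the joined class 5 and 1 (17.9% and 19.1%) and in NK cells 6 and 0 (16.8% and 19.3%). All these shares also count genes that could not be given a direction. The median log2 ratio of the 10 genes was 0.18 in macrophages, against 0.04 over all genes. For the genes that could be placed it was -1.09 in monocytes, against -0.11, and -2.17 in NK cells, against 0.08. The monocyte median lies between Mmp8 and Mmp19, each with 3 PBM UMIs. The NK median is the limit of Mmp14, which had no PBM UMI, and not a measured ratio. Mmp12 and Mmp13 also enter the NK median at their limits.

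Neutrophils and Sparc-led cells were too few in the PBM library for a ratio. In neutrophils the PBM and Control intervals overlap for each of the 10 genes. For Mmp8 they were 0 to 166 CPM in PBM and 107 to 224 CPM in Control neutrophils. The 3 PBM UMIs of Timp2 lay in 1 cell. Neutrophil markers had UMIs for 10 of 11 genes in both groups, with Ngp at 0, and summed to 26455 CPM in PBM and 52995 CPM in Control neutrophils. Of 7 mast cell or basophil markers, 1 had UMIs in PBM neutrophils (135 CPM) and 7 in Control neutrophils (1720 CPM). Macrophage markers summed to 225 CPM in PBM and 1532 CPM in Control neutrophils, and the part of such RNA in the neutrophil levels was not tested. Of the 11 markers of the Sparc-led class, 5 had UMIs in the 7 PBM cells, with Col1a1, Col3a1, Col6a1, Lum, Pdgfra and Pdgfrb at 0, and all 11 in the Control cells. The summed levels were 417 and 3669 CPM, so whether the 7 PBM cells are the same kind of cell was not tested.

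Other genes of the pathway were read from lists in the same way. Of 16 other metalloproteinase genes found, 13 had under 200 UMIs in the Control library. Mmp2, the gelatinase that MMP14 and TIMP2 act on, had 2 UMIs in PBM Sparc-led cells and 271 CPM in Control Sparc-led cells, where Timp2 was also highest. Mmp11 had 20.2 CPM in the same Control cells and Mmp25 25.4 CPM in Control neutrophils. Of 17 matrix substrate genes, 14 were highest in Sparc-led cells, among them Sparc itself (1603 CPM), Bgn (808 CPM) and Col3a1 (655 CPM). Fn1, the fibronectin gene, was the exception in macrophages, at 1029 CPM in PBM and 1814 CPM in Control cells.

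In macrophages and monocytes together, 5 of 15 matrix substrate genes tested were lower in PBM cells and none was higher, where 9.24% and 10.9% of all genes passed. In macrophages alone 2 of 15 were lower. Fn1 had a log2 ratio of -1.24 (-1.39 to -1.10) in the joined class, but -0.82 in macrophages and -0.22 in monocytes, neither past 2-fold. Sparc, Bgn, Col3a1 and Lamc1, counted as lower in the joined class, had no PBM UMI and Control levels of 18.1 to 28.1 CPM. A gene without a PBM UMI could not be counted as higher, and only 7 of the 15 could be given a direction. Control NK cells had similar levels of Sparc (28.9 CPM), Bgn (20.0 CPM) and Col3a1 (16.7 CPM). Of 8 activator and partner genes, 2 were lower, Spp1 and Cd63. Spp1, the gene of osteopontin, which is itself cut by metalloproteinases, was at 954 CPM in PBM and 3047 CPM in Control cells (-1.67). In macrophages alone Spp1 was at -0.80. Cd63, a tetraspanin that binds TIMP1, was at 84.8 and 410.6 CPM (-2.28). Its ratio was -1.63 in macrophages and -1.05 (-2.38 to 0.02) in monocytes. Lcn2, whose product binds MMP9, was the 1 higher gene, and it was singled out after its values were seen: it had 21.9 CPM in PBM monocytes (6 UMIs) and 3.33 CPM in Control monocytes, and no UMI in PBM macrophages. Plau, the gene of urokinase, the ligand of the receptor, was 7.22 CPM in PBM cells (4 UMIs) and 29.3 CPM in Control cells. It was the 1 lower gene of 10 in its list. All 4 PBM UMIs of Plau lay in macrophages, where its ratio was -1.13 (-3.00 to 0.23). Among 6 ADAM genes tested Adam15 was lower (-1.15) and Adam19 higher (1.98, on 10 PBM UMIs), while Adam10 (-0.59) and Adam17 (-0.73) lay within 2-fold. Among 8 other inhibitor genes Serpinb2, which blocks urokinase, was higher (2.57, on 10 PBM UMIs), but 8 of these UMIs lay in monocytes, where its ratio was 0.86 (-0.41 to 1.93). Slpi was at 0.95.

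The lists also held AP-1 genes, whose products bind the motif shown above, in 1 list with NF-kB genes, whose products are other factors. None of these 14 genes passed 2-fold in macrophages and monocytes together. Their median log2 ratio, taken over both families, was 0.48 against 0.01 over all genes. This median was 0.11 against 0.04 in macrophages alone, and -0.19 against -0.11 in monocytes alone. Of the 14 genes 1 was higher in macrophages alone, the NF-kB gene Rela (1.02). In the joined class the AP-1 gene Junb was 931 CPM in PBM cells and 564 CPM in Control cells (0.72). Fos was at 428 and 392 CPM (0.12), Jund at 197 and 195 CPM (0.01), and Jun at 245 and 321 CPM (-0.39). In macrophages and monocytes taken apart, Fos was at -0.50 and -0.12 and Junb at 0.61 and 0.02. Jund was at -0.08 and -0.39 and Jun at -0.24 and -0.86. For the joined class the medians of the other lists were -0.63 for the 10 genes described here and -1.74 for matrix substrates. They were -0.66 for ADAM genes and -0.46 for the urokinase system. The substrate median counts genes without a PBM UMI at their limits and is itself the limit of Lamc1, so it is not a measured ratio.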

How the data were processed

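Both libraries were made with a droplet 3′ kit, and the authors deposited raw UMI counts per gene and cell as matrices. Cell Ranger 7.2.0 and the mm10 build are named in the submitters' processing notes, whereas PISA 0.12 is named per the file headers, so which program made the counts is not given in the sources used here. Free RNA had not been removed as far as these sources state. No per-sample value column was left unmapped.

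Cells with at least 500 UMIs, 200 genes and at most 10% mitochondrial UMIs were kept (1 PBM and 11 Control barcodes failed), and Scrublet doublets were removed per library, with an expected rate of 0.8% per 1000 barcodes. Both libraries were clustered together with scanpy 1.11.5 (2000 variable genes without the 10 genes, 30 components, 15 neighbours, Leiden resolution 1.0, seed 0). A cluster was named from at least 3 of its class's markers, each at 1.5 times the mean over clusters and in at least 10% of cells. UMIs were summed per class. The totals were 86159897 UMIs over 13962 PBM barcodes and 104673228 UMIs over 11238 Control barcodes.

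Intervals are exact 95% Poisson, binomial or conditional binomial intervals (scipy 1.17.1) and cover counting error only. Ratios needed 50 cells in each library and 20 UMIs over both. With 1 library per group no test was made and no p-value is given. The ratio code was tested on simulated data. The 10 genes and all lists were chosen with earlier results of these data known. Text names the 10 genes, from each list at most the 4 genes with the most UMIs and those at 2-fold with at least 100 UMIs, and the 3 genes nearest to each of the 10 over clusters of at least 50 cells. Some genes that this rule or a marker list holds are not reported here. Mmp11, Mmp25, Mmp2, Plau, Adam19, Serpinb2 and the leading genes of clusters are named beyond that where a count or level needs them, after their values were seen. The alternatives were kept doublets, other Leiden resolutions, a marker gate, thinning to 1000 UMIs, subtraction of free RNA, TMM factors (edgeR 4.0.16), 1.5-fold and a minimum of 5 UMIs. After seeing the data 3 more were added: counting the Gm10800-led cluster as macrophages, leaving out lymphocyte-led sub-clusters, and leaving out the top cell of each gene.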

Additional observations from a re-analysis of the deposited data

Results flagged for a closer look

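For 3 of the 10 genes the PBM against Control log2 ratio had opposite signs in different cell classes, and the difference between classes was not tested because each group is 1 library. Timp1 was at 1.57 in macrophages, -3.77 in monocytes and -3.47 in NK cells. Of its 100 PBM macrophage UMIs, 83 lay in the lymphocyte-led sub-clusters. In macrophages outside them Timp1 was 136 CPM in PBM (79.4 to 218) and 119 CPM in Control cells. Free RNA could supply 100% of the Timp1 level of Control NK cells by the estimate above. Adam8 was at 0.53 in macrophages, -2.38 in monocytes and -5.97 in NK cells. Neither monocyte difference was detectable within the Cd177-led sub-cluster, as given above. Plaur was at 0.40 in macrophages, -0.36 in monocytes and -1.92 in NK cells. The sign for Plaur turned under alternatives, to -0.65 in macrophages at Leiden resolution 2.0 and to 0.16 in monocytes by the marker gate, and that for Adam8 in macrophages to -1.21 at resolution 2.0. At that resolution a cluster with all 11 macrophage markers was left unnamed.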

How the results depend on the processing

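Counts of genes at 2-fold depended on how cells were classed and on depth. Shares of all genes are given above for the main classes at 2-fold and 1.5-fold, and not for the other alternatives. In macrophages and monocytes together, 3 genes were lower in PBM cells, and this number was 5 at Leiden resolution 0.5, 7 at resolution 2.0, 6 without the lymphocyte-led sub-clusters, 5 at 1.5-fold and 5 without the top cell of each gene. None was higher, against 1 with free RNA subtracted and 1 at 1.5-fold. In macrophages 2 were lower and 1 higher, against 6 and 0 at resolution 2.0, and 1 and 2 after thinning. At resolution 2.0 the macrophages and the joined class lack the unnamed cluster of 31 PBM and 1603 Control cells. In monocytes 5 were lower, against 3 by the marker gate, 2 after thinning and 2 with free RNA subtracted, where 2 were higher. In NK cells 5 were lower, against 3 after thinning and 2 with free RNA subtracted. Mmp19 in monocytes was at 0.18 by the marker gate, against -1.05. Over all settings Mmp12 ranged between -3.24 and -0.91 in macrophages and between -4.81 and -1.69 in macrophages and monocytes together. Timp2 ranged between -2.78 and -1.96 in macrophages, but turned direction in monocytes (-3.01 to 2.83) and NK cells (-0.98 to 0.91), as did Mmp14 in monocytes (-2.15 to 2.39). In macrophages Mmp8, Mmp13, Mmp14, Mmp19, Adam8 and Plaur also took both signs, as did Plaur in monocytes (-0.75 to 0.16) and Mmp8, Mmp13, Adam8, Plaur and Timp1 in the joined class. By the marker gate 4 genes were highest in macrophages and 4 in neutrophils, against 5 and 3. Timp1 ranged between 0.84 and 1.90 in macrophages and between -1.23 and 1.06 in the joined class. The cause of these shifts was not tested. The marker gate left 48 PBM macrophages and the removal of lymphocyte-led sub-clusters 33, under the 50 needed, so neither gave a macrophage ratio. No paired analysis was possible because each group has 1 library and no test was made.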
